A study of Mus musculus with 3 samples.

Results

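Collagens are the proteins that give the cornea its strength and its transparency. Their chains wind together into a triple helix, which needs a glycine followed by a pair of other residues over and over along each chain. Fibrillar collagens (types I, III, V, XI, XXIV and XXVII here) pack into the fibrils of the stroma, where type I makes the bulk and type V limits fibril width. Basement membrane collagens form the type IV networks under epithelium and around vessels and nerves, with type VII as the anchoring fibril, type XVII as the hemidesmosome collagen of basal epithelial cells, and types XV and XVIII as the collagens that carry heparan or chondroitin sulphate chains. The other collagens comprise the beaded filaments of type VI, the FACIT collagens that sit on fibril surfaces (such as types IX, XII, XIV and XVI), the short-chain collagens of type VIII found in Descemet's membrane and in remodelling vessels, and transmembrane collagens such as types XIII, XXIII and XXV.

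The genes described here are all those whose symbol is Col, a number, the letter a and a number in full. They were 44 of the 32285 genes in the tables, of which 11 are fibrillar, 10 belong to the basement membrane with its anchors, and 23 are other collagens. Their levels were read in single-cell RNA libraries of dissociated mouse cornea and limbus. The first library came from an uninjured wild-type mouse, the second from a wild-type mouse whose eye was injured with nitrogen mustard (NM, an alkylating agent) and given saline, and the third from a wild-type mouse injured in the same way and given losartan, an angiotensin receptor blocker. Lens, retina, iris, trabecular network and most of the conjunctiva had been removed, and the tissue was digested with 0.7 mg/mL liberase TM and then trypsin. Not given in the sources used here are strain, age, when after the injury the eyes were taken, how losartan was given and at what dose, and how many eyes entered a library. Each group is 1 library from 1 mouse, so no difference below has a replicate check and no p-value is given.

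The repeat that defines these proteins can be read in their genes, and its length sets the fibrillar genes apart from the rest. The coding stretches shown are a helix exon of a type I, a type III and a type V chain, of type IV with and without a break in the repeat, and of type XVIII. They were taken from the GRCm38 genome with the GENCODE M21 gene models, written in the direction of the gene, with glycine codons in capitals.
Col1a2 exon 27 of 52, chr6:4524117-4524170, plus strand: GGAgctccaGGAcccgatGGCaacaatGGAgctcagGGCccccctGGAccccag
Col3a1 exon 26 of 51, chr1:45334761-45334814, plus strand: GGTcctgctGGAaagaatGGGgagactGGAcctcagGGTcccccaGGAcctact
Col5a2 exon 29 of 54, chr1:45403116-45403169, minus strand: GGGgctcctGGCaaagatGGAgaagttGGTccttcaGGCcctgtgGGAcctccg
Col4a1 exon 7 of 52, chr8:11245211-11245264, minus strand: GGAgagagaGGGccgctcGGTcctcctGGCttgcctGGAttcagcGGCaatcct
Col4a1 exon 12 of 52, with a break, chr8:11242173-11242214, minus strand: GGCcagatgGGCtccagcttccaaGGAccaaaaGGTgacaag
Col18a1 exon 14 of 41, chr10:77076148-77076174, minus strand: GGTgatgtgGGCatcccaGGAcccaag
In the fibrillar exons every glycine codon is followed by 6 other bases, whereas the second type IV stretch holds a longer gap between glycine codons. The longest unbroken run of glycine triplets spanned 216 to 344 triplets in the 11 fibrillar genes (median 338), 30 to 75 in the 10 basement membrane genes (median 43.5) and 23 to 113 in the 23 others (median 45). Coding exons of exactly 54 bases made up 41.2 to 55.0% of the coding exons of fibrillar genes, 2.13 to 7.32% of those of basement membrane genes and 0 to 44.4% of those of the others. The unbroken Col4a1 exon shown has 54 bases and is thus not of a usual size for its role. Type IV genes lie in head-to-head pairs. The annotated starts of Col4a1 and Col4a2, on opposite strands, overlap by 22 bases at chr8:11312805-11312826, a stretch that reads, on the plus strand,
Col4a1 and Col4a2 start overlap: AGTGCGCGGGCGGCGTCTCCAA
and the starts of Col4a5 and Col4a6 lie 1342 bases apart on chromosome X.

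The UMI counts (unique molecular identifiers, each standing for 1 captured RNA molecule) came from 13270, 6814 and 5887 cell barcodes in the uninjured, saline and losartan libraries, in that order, which is kept in every set of values below. After filtering, 11233, 5800 and 4919 cells remained, with median depths of 11850, 4169.5 and 6438 UMIs. Cells were clustered without any collagen gene and named from marker lists that hold no collagen, so no collagen level was used directly to define a class. Whether the marker genes vary together with collagens was not tested. Stromal-like cells numbered 449, 734 and 766, epithelial-like cells 8256, 878 and 1757, mural-like cells 89, 0 and 36, vascular endothelial-like cells 46, 11 and 22, and Schwann-like cells 101, 26 and 3. The stromal marker list of 14 genes summed to 64241, 43494 and 24891 CPM (UMIs per 1000000 UMIs of those cells) in stromal-like cells and to 49.7 to 64.3 CPM in epithelial-like cells. The epithelial list summed to 41954 to 51072 CPM in its own class and to 1725, 604 and 455 CPM in stromal-like cells. The mural, vascular endothelial and Schwann lists each had 0 of 12 genes at 0 in their own uninjured class, and the Schwann list 1 and 3 in its saline and losartan cells. Macrophage markers summed to 729, 1430 and 204 CPM in stromal-like cells. Depth, cell numbers and these marker sums differ between the libraries together with the groups, and their part in the differences below cannot be told apart from injury or treatment.

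Levels are UMIs summed over the cells of a class, divided by all UMIs of that class and given as CPM. They are not scaled to gene length, so a level is compared with the same gene elsewhere and not with another gene. A member was measured in a comparison when it reached 10 CPM in at least 1 of its libraries, and it was counted as higher or lower from a 1.5-fold difference on the CPM + 5 scale. All intervals are 95% intervals (exact Poisson, binomial or Clopper-Pearson) that cover counting error only, not differences between animals. Of the 44 members, 27 were measured in stromal-like cells, 9 in epithelial-like, 22 in mural-like, 14 in vascular endothelial-like and 28 in Schwann-like cells. Of the 14, Col23a1 and Col25a1 reached 10 CPM only in the 11 saline cells, from 3 UMIs each. In saline Schwann-like cells 1 UMI equals 33.1 CPM, so any UMI there passes. Altogether 35 members were measured in at least 1 of these classes. The remaining 9, Col2a1, Col11a2, Col4a3, Col6a4, Col6a5, Col6a6, Col22a1, Col10a1 and Col26a1, stayed under 10 CPM in each of them.

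The classes differed in which kind of collagen they held. In stromal-like cells collagens took 3.94, 1.10 and 1.95% of all UMIs, and fibrillar chains made up 74.0% (73.8 to 74.2), 68.5% (68.0 to 69.0) and 77.1% (76.9 to 77.3) of the collagen UMIs. In epithelial-like cells collagens took 0.130, 0.123 and 0.126% of UMIs, and basement membrane chains made up 97.3, 91.6 and 92.0% of them. Mural-like cells, the pericytes and smooth muscle of vessels, were mixed, with 49.0% (46.3 to 51.6) fibrillar and 31.6% (29.2 to 34.0) basement membrane chains in the uninjured library and 53.5% (51.3 to 55.7) and 26.2% (24.4 to 28.2) in the losartan library. Vascular endothelial-like cells were mostly basement membrane, at 89.7% (87.0 to 91.9) in the uninjured and 92.2% (89.7 to 94.2) in the losartan library. Schwann-like cells, the glia of corneal nerves, spread their collagen UMIs over all kinds, with 37.2% (34.0 to 40.4) fibrillar, 25.2% (22.5 to 28.2) basement membrane and 37.6% (34.4 to 40.8) others in the uninjured library.

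**Figure D1:**
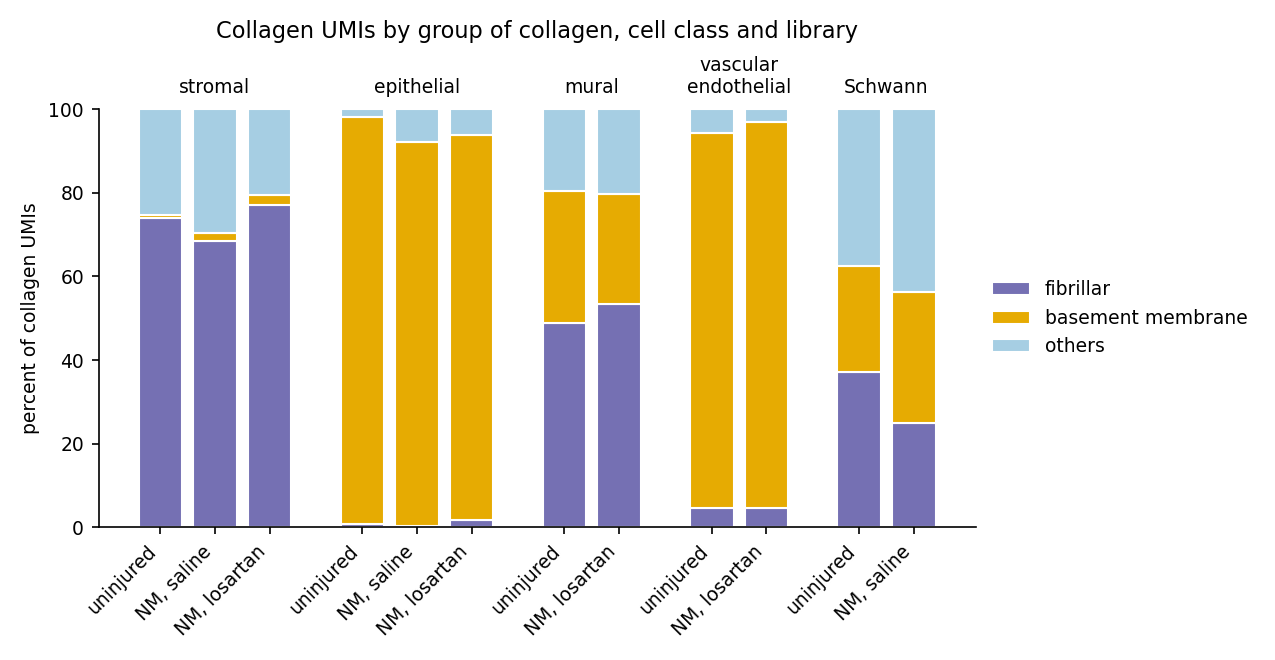
Share of collagen UMIs (percent, vertical axis) that belonged to fibrillar, basement membrane and other collagens in each cell class and library with 20 or more cells. Stromal-like bars are mostly fibrillar (68.5 to 77.1%), epithelial-like bars almost wholly basement membrane (91.6 to 97.3%), and mural-like and Schwann-like bars mixed.

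The fibrillar collagens of stromal-like cells were lower in both injured libraries than in the uninjured library, with the exception of Col3a1 after losartan. Col1a1, a chain of type I collagen, stood at 12367, 3725 and 6586 CPM. The uninjured library was the highest and the saline library the lowest, 3.32-fold below it (95% interval 3.25 to 3.39), and the losartan library lay 1.77-fold above saline (1.73 to 1.80). Col1a2, the partner chain, showed the same order at 12871, 2545 and 5755 CPM, 5.06-fold lower in saline than uninjured (4.93 to 5.18) and 2.26-fold higher in losartan than saline (2.21 to 2.32). Col5a2, of the fibril-regulating type V, stood at 2255, 636 and 732 CPM. Here the saline library was 3.55-fold below the uninjured one (3.37 to 3.73), and losartan exceeded saline by 1.15-fold (1.09 to 1.21), under the 1.5-fold threshold. Col5a1, the other main type V chain, was alike at 822, 297 and 349 CPM. Col11a1, a type XI chain that copolymerises with types II and V, stood at 400, 125 and 238 CPM. The minor members Col5a3 (29.8, 15.4 and 21.3 CPM) and Col24a1 (150, 51.8 and 79.2 CPM) had the same order, and Col27a1 was lowest in losartan (103, 68.6 and 49.5 CPM).

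Col3a1, the chain of type III collagen, which is known from scars and vessel walls and is scarce in normal corneal stroma, departed from the other fibrillar chains. It stood at 154, 37.1 and 1233 CPM, from 643, 104 and 13664 UMIs. The saline library was 4.16-fold below the uninjured one (3.37 to 5.16), and the losartan library was 33.2-fold above saline (27.4 to 40.7) and 7.99-fold above uninjured (7.38 to 8.66). Much of the Col3a1 signal was concentrated in a small number of cells. UMIs of Col3a1 were found in 124, 22 and 240 stromal-like cells, and 18, 2 and 21 of those cells held 50% of them. With every cell thinned to 1000 UMIs, 8.66% (6.20 to 11.7), 0.823% (0.303 to 1.78) and 17.3% (14.7 to 20.2) of stromal-like cells had a Col3a1 UMI, after 10, 5 and 8 shallower cells were left out. Before thinning the shares were 27.6, 3.0 and 31.3%, at median depths of 9853, 2906.5 and 8406.5 UMIs. In neutrophil-like cells thinned in the same way, which should lack type III chains, 0.101% of saline cells (2000 drawn at random) and 0.442% of losartan cells had a Col3a1 UMI, at depths of 4011.5 and 2622 UMIs before thinning. Mural markers, from cells in which Col3a1 is high, summed to 200, 61.4 and 254 CPM in stromal-like cells, and their part in the Col3a1 values was not tested. Per UMI of Col5a2 there were 0.0684, 0.0584 and 1.69 UMIs of Col3a1.

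Of the 9 fibrillar members measured, 8 were lower and 0 higher in saline than in uninjured stromal-like cells (median log2 difference −1.64). Over all 26 collagens measured the count was 20 lower and 1 higher, with a median of −1.45. Among all genes measured in this comparison 46.9% passed the same threshold, 17.0% as higher and 30.0% as lower, with a median of −0.24. In losartan against saline 4 of 9 fibrillar members were higher and 0 lower (median 0.57). Over the 27 collagens measured 11 were higher and 4 lower (median 0.35), where 43.6% of all genes passed, 26.0% as higher and 17.6% as lower, with a median of 0.16. Within cluster 7 of the stroma, described below, 3 were higher and 7 lower in losartan than saline, where 12.5% of all genes were higher and 24.4% lower. Scaling by the median of gene ratios in place of total UMIs moved the all-gene centre by −0.30 in the first comparison and 0.22 in the second, on the log2 scale. Under that scaling the first split was 3 higher and 18 lower and the second was 10 higher and 6 lower. The all-gene shares under that scaling are not given, and the shares above do not apply to these splits. Relative to uninjured, losartan had 6 collagens higher and 17 lower of 27, where 38.0% of all genes passed, 17.4% as higher and 20.5% as lower. This comparison shares its losartan library with the second and its uninjured library with the first.

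Basement membrane chains were a small part of the stromal collagen UMIs, at 0.807, 1.75 and 2.37%. Their members went different ways. Col4a1, of the ubiquitous type IV network, stood at 86.9, 30.7 and 191 CPM. It was 2.83-fold lower in saline than uninjured (2.23 to 3.62) and 6.21-fold higher in losartan than saline (5.00 to 7.79). Col4a2, which assembles with Col4a1 and whose start overlaps it, stood at 112, 46.1 and 177 CPM and had the same order, which is also that of the mural marker sums in these cells. The pair's ratio also differed, with 1.28, 1.5 and 0.928 UMIs of Col4a2 per UMI of Col4a1. Col18a1, the precursor of endostatin, was at 1.20 CPM (5 UMIs) in uninjured stromal-like cells, 15.0 in saline and 46.3 in losartan. It was 12.5-fold higher in saline than uninjured (4.95 to 40.5), the collagen counted as higher there, and 3.09-fold higher in losartan than saline (2.25 to 4.34). Col7a1, the anchoring fibril chain, stood at 59.8, 40.0 and 21.7 CPM, and Col4a5 at 15.8, 25.3 and 12.5 CPM. Col17a1, an epithelial collagen, had 38.6, 27.1 and 10.7 CPM in stromal-like cells, in the same order of libraries as the epithelial marker sums there (1725, 604 and 455 CPM), whose part was not tested. Of 6 basement membrane members measured, 1 was higher and 2 lower in saline than uninjured, and 3 were higher and 3 lower in losartan than saline. Among all genes measured 17.0% were higher and 30.0% lower in the first comparison. In the second, 26.0% were higher and 17.6% lower.

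Type VI chains were lower in both injured libraries, and none of the 3 measured was higher in losartan than saline by the threshold. Col6a1 stood at 2319, 801 and 555 CPM, 2.89-fold lower in saline than uninjured (2.76 to 3.03) and 1.44-fold lower again in losartan than saline (1.37 to 1.51). Col6a2 (1448, 399 and 328 CPM) had the same order, and Col6a3 (2114, 551 and 625 CPM) had both injured libraries close together. Summed over the beaded filament genes, losartan lay 3.89-fold below uninjured, whereas the fibrillar sum lay 1.94-fold below it.

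Among FACIT collagens Col12a1, a long chain of the fibril surface, stood at 3163, 1142 and 1907 CPM, an order like that of type I. It was 2.77-fold lower in saline than uninjured (2.66 to 2.88) and 1.67-fold higher in losartan than saline (1.61 to 1.73). Col14a1, of the related type XIV, was low in the saline library alone, with 113, 27.1 and 103 CPM. Col9a1, a type IX chain, was 8.26-fold lower in saline than uninjured (5.29 to 13.6), from 61.9 to 7.50 CPM, and stood at 10.9 CPM in losartan. Col20a1 stood at 7.44, 8.21 and 11.1 CPM, and the interval of each of its ratios includes 1. Col16a1 was lower in both injured libraries, at 216, 89.6 and 70.3 CPM.

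The short-chain and the transmembrane collagens each held members that went in opposite directions. Col8a1, a type VIII chain, stood at 22.3, 35.0 and 112 CPM, 1.57-fold higher in saline than uninjured (1.17 to 2.10), under the threshold on the CPM + 5 scale, and 3.19-fold higher in losartan than saline (2.60 to 3.96). Its partner Col8a2 was lower in both injured libraries, at 205, 98.5 and 94.1 CPM. Col13a1, a transmembrane collagen of cell adhesion sites, stood at 181, 37.5 and 11.6 CPM. It was 4.82-fold lower in saline than uninjured (3.93 to 5.97) and 15.6-fold lower in losartan than uninjured (13.0 to 19.0). Col23a1, also transmembrane, was highest in losartan, at 72.0, 42.1 and 176 CPM. Of the 11 other collagens measured in saline against uninjured 10 were lower and 0 higher, where 30.0% of all genes were lower and 17.0% higher. Of the 12 measured in losartan against saline 4 were higher and 1 lower, where 43.6% of all genes passed, 26.0% as higher and 17.6% as lower. The second count lies near the all-gene share.

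**Figure D2:**
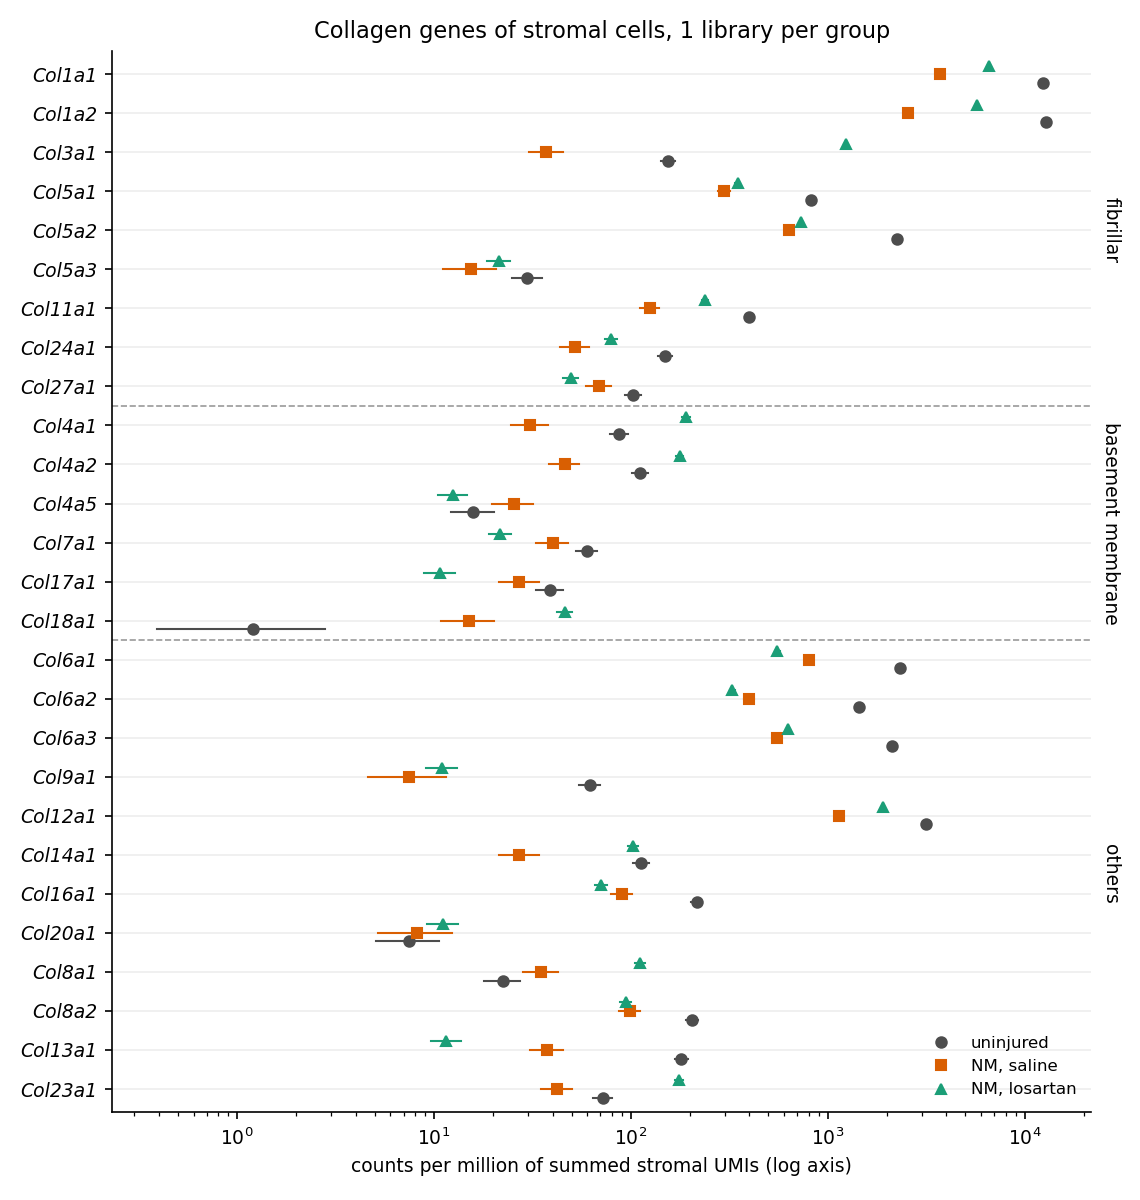
Level of the 27 collagen genes measured in stromal-like cells (CPM, log axis) in the uninjured, NM saline and NM losartan libraries, grouped by role, with 95% Poisson bars for counting error. Most fibrillar and type VI points lie highest in the uninjured library (Col1a2 12871, 2545 and 5755 CPM), and Col3a1 (154, 37.1 and 1233 CPM), Col18a1 and Col8a1 lie highest in losartan.

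The stromal-like class was made of different clusters in each library, and the collagen share differed both between clusters and between libraries within a cluster. Cluster 18, led by the keratocyte gene Kera, held 304 of the 449 uninjured cells and none of the injured ones. Cluster 7, led by Apod, Mfap4 and Dcn, held 70, 655 and 309 cells, which is 89.2% of the saline class. Cluster 17, led by Mmp3, Igfbp4 and Timp1, held 75, 14 and 392 cells, and in losartan these gave 88.5% of the class's UMIs. Cluster 15.1 held 0, 65 and 65 cells. Collagens took 4.03% of UMIs in cluster 18. They took 3.15, 1.53 and 1.28% in cluster 7, 3.61, 0.387 and 2.11% in cluster 17, and 0.0793 and 0.112% in cluster 15.1 of saline and losartan.

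Within cluster 7 the saline library was still below the uninjured one, but losartan was not above saline there for type I. Col1a1 stood at 9853, 5317 and 4375 CPM there, 1.85-fold lower in saline than uninjured (1.75 to 1.96) and 1.22-fold lower in losartan than saline (1.17 to 1.27). Col1a2 (8028, 3631 and 3270 CPM), Col11a1 (517, 168 and 141 CPM) and Col12a1 (3186, 1558 and 1017 CPM) had the same order of libraries. Col4a1 stood at 78.5, 33.0 and 32.4 CPM in cluster 7, and Col23a1 at 52.3, 55.4 and 49.4 CPM, so neither had the excess in losartan seen in the whole class. Col8a1 stood at 6.54, 28.2 and 8.46 CPM in cluster 7, with losartan 3.34-fold below saline (1.43 to 9.49). Of the 3 collagens higher in losartan than saline within cluster 7, Col3a1 stood at 39.3, 11.7 and 40.9 CPM, with losartan 3.49-fold above saline (1.94 to 6.38) from 29 and 22 UMIs. The other two were Col9a1 (9.59 CPM in saline and 26.8 in losartan, 18 and 19 UMIs) and Col26a1 (2.66 and 11.3 CPM, 5 and 8 UMIs), named after their values were seen. Of 26 collagens measured in cluster 7, 19 were lower and 2 higher in saline than uninjured, where 71.9% of all genes passed the threshold, 15.7% as higher and 56.2% as lower. In losartan against saline 7 were lower and 3 higher there, where 36.8% passed, 12.5% as higher and 24.4% as lower. In cluster 15.1, 6 of 19 were higher and 2 lower in losartan than saline, where 36.6% passed, 18.3% as higher and 18.2% as lower. Type I was among the higher there, with Col1a1 at 199 CPM in saline and 302 in losartan, 1.52-fold higher (1.19 to 1.95), and Col1a2 at 95.7 and 215 CPM, 2.25-fold higher (1.61 to 3.18). The uninjured cells of cluster 7 were shallow (median 1575 UMIs) and carried epithelial markers at 11901 CPM, against 713 and 1871 CPM in the injured libraries, and Col17a1 stood at 360 CPM in them. The part of that signal in the cluster 7 values was not tested.

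Cluster 17 gave nearly all the losartan UMIs of Col3a1, Col4a1 and Col18a1, which stood highest in losartan. It held 88.5% of all losartan UMIs of the class. Col3a1 stood at 528, 216 and 1390 CPM there, and 13633 of the 13664 losartan UMIs of Col3a1 in the class came from it, as did 2085 of 2111 for Col4a1 and 507 of 513 for Col18a1. For Col3a1, losartan lay 2.63-fold above uninjured (2.35 to 2.96) within cluster 17. Col4a1 stood at 155 CPM in uninjured and 213 in losartan cells of cluster 17, and Col23a1 at 70.7 and 193 CPM. Col1a1 lay at 13455 and 7110 CPM in the same cells, and Col6a1 at 1483 and 545 CPM, with losartan 2.72-fold below uninjured for Col6a1. The saline library had only 14 cells in this cluster, whose stromal marker sum was 9669 CPM against 67389 in uninjured and 22240 in losartan cells. Col1a1 was at 903 CPM in those 14 cells. Over the 28 collagens measured, 6 were higher and 13 lower in losartan than uninjured cells of cluster 17, where 45.1% of all genes passed, 21.2% as higher and 24.0% as lower.

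**Figure D3:**
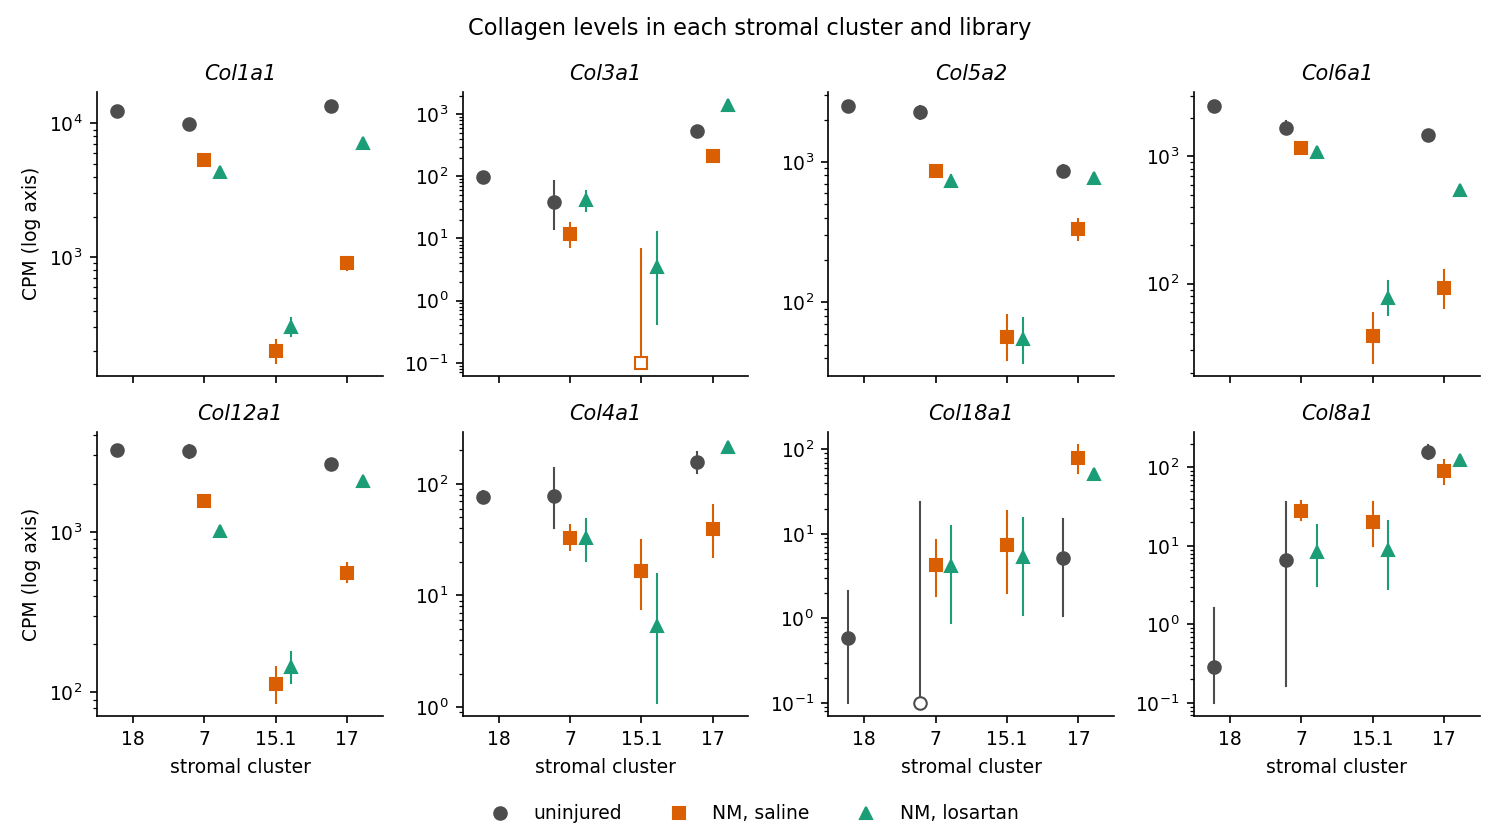
Level of 8 collagen genes (CPM, log axis) in stromal clusters 18, 7, 15.1 and 17 of each library, with 95% Poisson bars and open symbols at the axis floor where no UMI was found. In cluster 7 the losartan points for Col1a1 and Col12a1 lie below saline (4375 against 5317 CPM, and 1017 against 1558 CPM), while Col3a1 is highest in cluster 17 of losartan (1390 CPM).

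Chains that share a triple helix did not keep fixed proportions. Type I collagen is built from Col1a1 and Col1a2 chains, and the UMI ratio of Col1a1 to Col1a2 in stromal-like cells was 0.961 (0.949 to 0.973) in the uninjured, 1.46 (1.42 to 1.51) in the saline and 1.14 (1.13 to 1.16) in the losartan library. Within cluster 7 the same ratio was 1.23, 1.46 and 1.34, a narrower span. In type VI, Col6a3 per Col6a1 was 0.912, 0.688 and 1.13, and in type V, Col5a2 per Col5a1 was 2.74, 2.14 and 2.10. In mural-like cells Col1a1 per Col1a2 was 0.413 in the uninjured and 0.558 in the losartan library, below every stromal value.

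In epithelial-like cells the injured libraries held several basement membrane and short-chain collagens that were close to 0 in the uninjured library. Median depth in this class was 14530, 46898.5 and 33958 UMIs, so shares of cells are given at an equal depth. Col18a1 stood at 0.555, 140 and 103 CPM, from 76, 6871 and 6327 UMIs. Saline was 253-fold above uninjured (202 to 321), and losartan was 1.36-fold below saline (1.31 to 1.41). With each cell thinned to 1000 UMIs, 0.101% (0.0122 to 0.364), 10.5% (8.48 to 12.7) and 9.84% (8.48 to 11.3) of epithelial-like cells had a Col18a1 UMI, from 2000 uninjured cells drawn at random and all injured cells, less 19, 27 and 20 shallower ones. In neutrophil-like cells, which should lack it, the share was 0.302% in saline and 0.0736% in losartan. Without thinning the epithelial shares were 0.550, 56.6 and 59.7%. Col8a1 stood at 1.19, 69.3 and 40.7 CPM, 58.2-fold higher in saline than uninjured (49.8 to 68.6) and 1.70-fold lower in losartan than saline (1.62 to 1.79). Col4a1 stood at 0.394, 31.6 and 9.26 CPM, 80.2-fold higher in saline than uninjured (61.2 to 107), and losartan lay 3.42-fold below saline (3.10 to 3.77). Col4a2 went with it at 0.664, 26.5 and 8.72 CPM. Of the second type IV pair, Col4a6 stood at 8.02, 21.6 and 20.1 CPM and Col4a5 at 37.2, 49.0 and 49.7 CPM.

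Over the epithelial-like class as a whole, the collagens that anchor the epithelium were lower in both injured libraries. Col17a1 of the hemidesmosome stood at 1186, 834 and 955 CPM, 1.42-fold lower in saline than uninjured (1.41 to 1.44), which is under the 1.5-fold threshold. Col7a1 stood at 27.3, 15.6 and 11.8 CPM, 1.75-fold lower in saline than uninjured (1.62 to 1.89). The injured clusters 4 and 5, described below, differed. In cluster 5 Col17a1 stood at 1668 and 1646 CPM in saline and losartan, and Col7a1 at 32.0 and 20.9 CPM. In cluster 4 Col17a1 stood at 229 and 260 CPM and Col7a1 at 3.76 and 2.68 CPM. The part of this mix of clusters in the class values was not tested. Col12a1, the remaining member measured, stood at 9.25, 16.6 and 23.0 CPM. No fibrillar chain reached 10 CPM in epithelial-like cells of any library. Of the 9 collagens measured 6 were higher and 1 lower in saline than uninjured (median 1.03), where 37.2% of all genes passed, 20.2% as higher and 17.1% as lower (median 0.03). In losartan against saline 0 were higher and 3 lower, namely Col4a1, Col4a2 and Col8a1, where 7.96% of all genes passed, 2.09% as higher and 5.87% as lower. The sum over basement membrane chains, most of whose UMIs are Col17a1, differed less than its members, by −0.17 on the log2 scale in saline against uninjured and 0.05 in losartan against saline.

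Uninjured and injured epithelial-like cells lay in different clusters, apart from 1 uninjured cell in cluster 4, 2 in cluster 5 and 1 losartan cell in cluster 11, too few for a comparison within a cluster. In the 7 uninjured clusters named epithelial-like Col17a1 ranged from 70.4 CPM in the superficial-cell cluster 13 to 2141 CPM in cluster 3, and Col7a1 from 0.681 to 67.9 CPM in the same pair. Cluster 11, led by the limbal gene Gpha2, had Col4a6 at 68.5 CPM and Col4a5 at 93.4 CPM, the highest of these 7 clusters for both genes. It also had Col14a1 at 14.1 CPM and Col23a1 at 24.2 CPM, with each of the other 6 clusters under 10 CPM for these genes. Col18a1 reached 2.91 CPM at most among the 7, in cluster 11. Uninjured clusters 6 and 10, shallow and left unnamed though the epithelial list scored highest in them, had Col17a1 at 2013 and 2953 CPM, and Col4a5 stood at 105 CPM in cluster 6.

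Injured epithelial-like cells lay in cluster 4, rich in Sprr genes of the cornified envelope, and cluster 5. Col18a1, Col8a1 and the Col4a1 pair lay mainly in cluster 5. Col18a1 stood at 39.7 CPM in saline and 27.4 in losartan cells of cluster 4 and at 279 and 178 CPM in cluster 5. Col8a1 stood at 155 CPM in saline and 78.0 in losartan cells of cluster 5, 1.99-fold lower in losartan (1.89 to 2.10). Col4a1 stood at 65.4 and 16.7 CPM there, 3.92-fold lower in losartan (3.54 to 4.34), and Col4a2 was 3.40-fold lower (3.06 to 3.79). Col17a1 did not share this difference, with 1668 and 1646 CPM in cluster 5. Markers of the corneal endothelium, a cell type known to make types IV and VIII, summed to 101 and 82.4 CPM in cluster 5 and to 15.7 and 11.4 CPM in cluster 4, with 1, 0, 0 and 0 of 6 at 0, and their part was not tested. The epithelial list summed to 21460 and 26491 CPM in cluster 5. In cluster 5, 4 of 9 collagens were lower and 0 higher in losartan than saline, where 8.45% of all genes passed, 2.45% as higher and 6.0% as lower. In cluster 4, 1 of 4 was higher, which was Col1a1 at 0.739 and 11.6 CPM, with 2 of the 867 losartan cells holding 50% of its 356 UMIs, where 10.5% passed, 2.51% as higher and 7.97% as lower. Col1a1 also stood at 5.49 and 22.4 CPM in neutrophil-like cells of the same libraries.

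**Figure D4:**
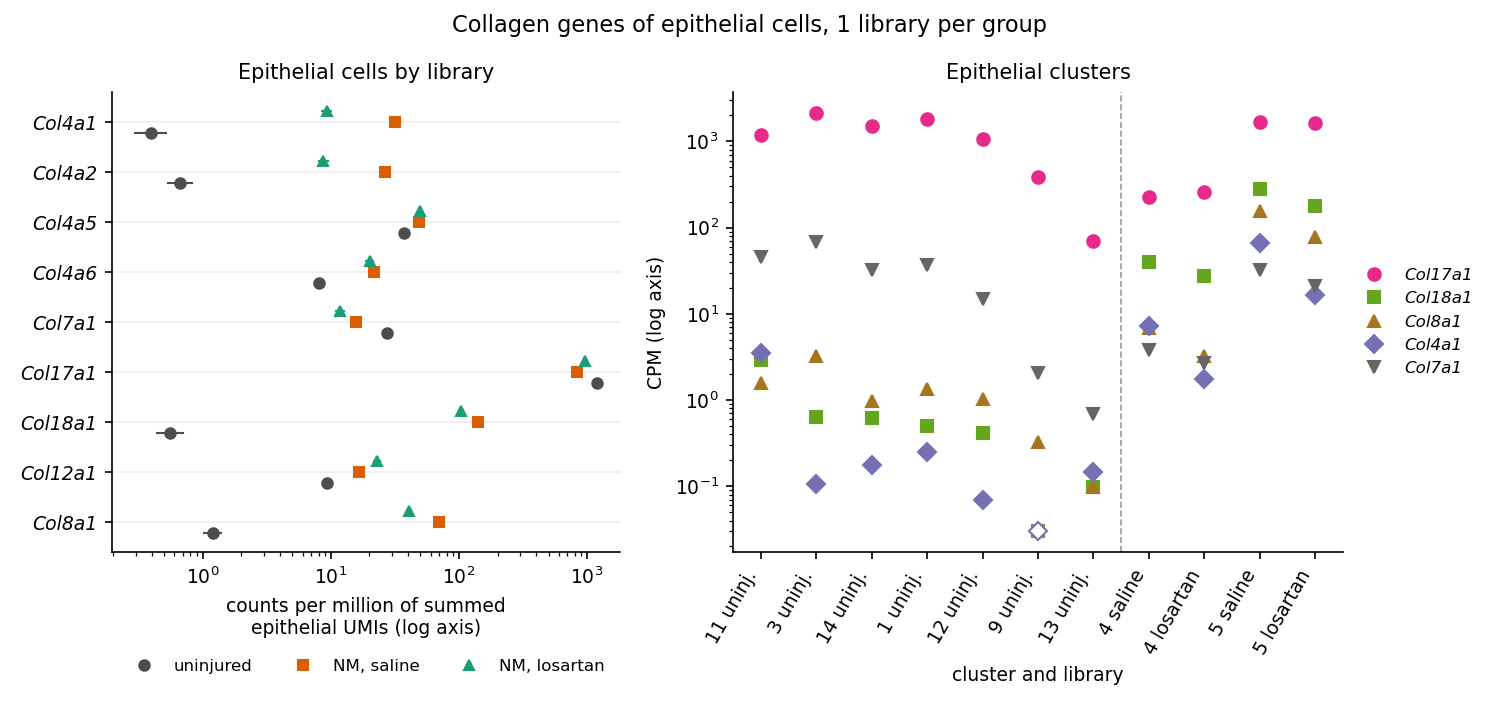
Left, level of the 9 collagen genes measured in epithelial-like cells (CPM, log axis) by library with 95% Poisson bars. Right, 5 of them by epithelial cluster, with open symbols at the axis floor where no UMI was found. Col18a1, Col8a1 and Col4a1 are highest in cluster 5 and higher in saline than in losartan there (Col4a1 65.4 against 16.7 CPM), while Col17a1 is lowest in cluster 13 (70.4 CPM), then in cluster 4 (229 and 260.2 CPM in saline and losartan).

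In mural-like cells vessel-wall collagens were compared between the losartan and the uninjured library, since 0 saline cells were named mural-like. At a clustering resolution of 0.4 there were 90, 7 and 51 such cells. Col18a1 had the largest excess in losartan, at 57.3 CPM (21 UMIs) in uninjured and 312 CPM (119 UMIs) in losartan cells, 5.45-fold higher (3.40 to 9.12). Col6a3 was 3.93-fold higher (2.44 to 6.58) and Col8a1 3.63-fold higher (2.13 to 6.49). Col1a1 (155 and 304 CPM) and Col5a2 (207 and 404 CPM) were higher by 1.96-fold and 1.95-fold, and Col3a1 stood at 973 and 1399 CPM. In losartan, 3 of the 36 cells held 50% of the Col1a1 UMIs, 8 those of Col5a2 and 4 those of Col6a3. Among the 89 uninjured cells the numbers were 10, 12 and 8. The stromal marker list summed to 1006 CPM in uninjured and 1145 CPM in losartan cells of this class. Its part in these fibrillar values, and in the fibrillar share of the class, was not tested. The vessel basement membrane chains were closer, with Col4a1 at 518 and 611 CPM, an interval of the ratio of 0.969 to 1.43, and Col4a2 at 483 and 414 CPM. Col25a1, a transmembrane collagen, was lower, at 60.0 CPM (22 UMIs) and 5.24 CPM (2 UMIs). Col17a1 was also lower, at 68.2 and 7.86 CPM, beside epithelial marker sums of 3174 and 487 CPM in these cells. Of 22 collagens measured 7 were higher and 4 lower, where 46.7% of all genes passed (26.2% as higher and 20.5% as lower), a like share.

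Vascular endothelial-like cells numbered 46 in the uninjured and 22 in the losartan library. The 11 saline cells were too few to compare. Col4a1 stood at 679 and 860 CPM, 1.27-fold higher in losartan (1.06 to 1.52), and Col4a2 at 469 and 472 CPM. The basement membrane collagens with sugar chains went apart. Col18a1 stood at 109 and 442 CPM, 4.04-fold higher in losartan (2.80 to 5.96), though 2 of the 22 losartan cells held 50% of its 133 UMIs. Col15a1 stood at 319 and 49.8 CPM, 6.41-fold lower in losartan (3.72 to 11.8). Mural markers summed to 118 CPM in the uninjured and 2065 CPM in the losartan cells of this class, with 3 and 8 of 12 at 0, and their part in these values was not tested. Of 12 collagens measured 2 were higher and 4 lower, where 56.1% of all genes passed (32.6% as higher and 23.5% as lower), again a like share.

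Schwann-like cells were shallow and few after injury, so most of their differences rest on a handful of UMIs. Col28a1, a collagen known from peripheral nerves, stood at 413 CPM (108 UMIs) in the 101 uninjured cells and 331 CPM (10 UMIs) in the 26 saline cells, a ratio whose interval spans 0.374 to 1.53. Col3a1 stood at 325 CPM (85 UMIs) in uninjured and 33.1 CPM (1 UMI) in saline cells, 9.82-fold lower (1.72 to 392). Col1a2 stood at 283 CPM (74 UMIs) and 33.1 CPM (1 UMI), 8.55-fold lower (1.49 to 342). Col4a1 of the nerve basement membrane stood at 294 and 132 CPM (77 and 4 UMIs), and the interval of its ratio, 0.120 to 1.20, includes no difference. Of 28 collagens measured 6 were higher and 16 lower, where 80.0% of all genes passed, 25.2% as higher and 54.8% as lower. The collagen counts thus lie near the all-gene shares. The 3 losartan cells were not compared.

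**Figure D5:**
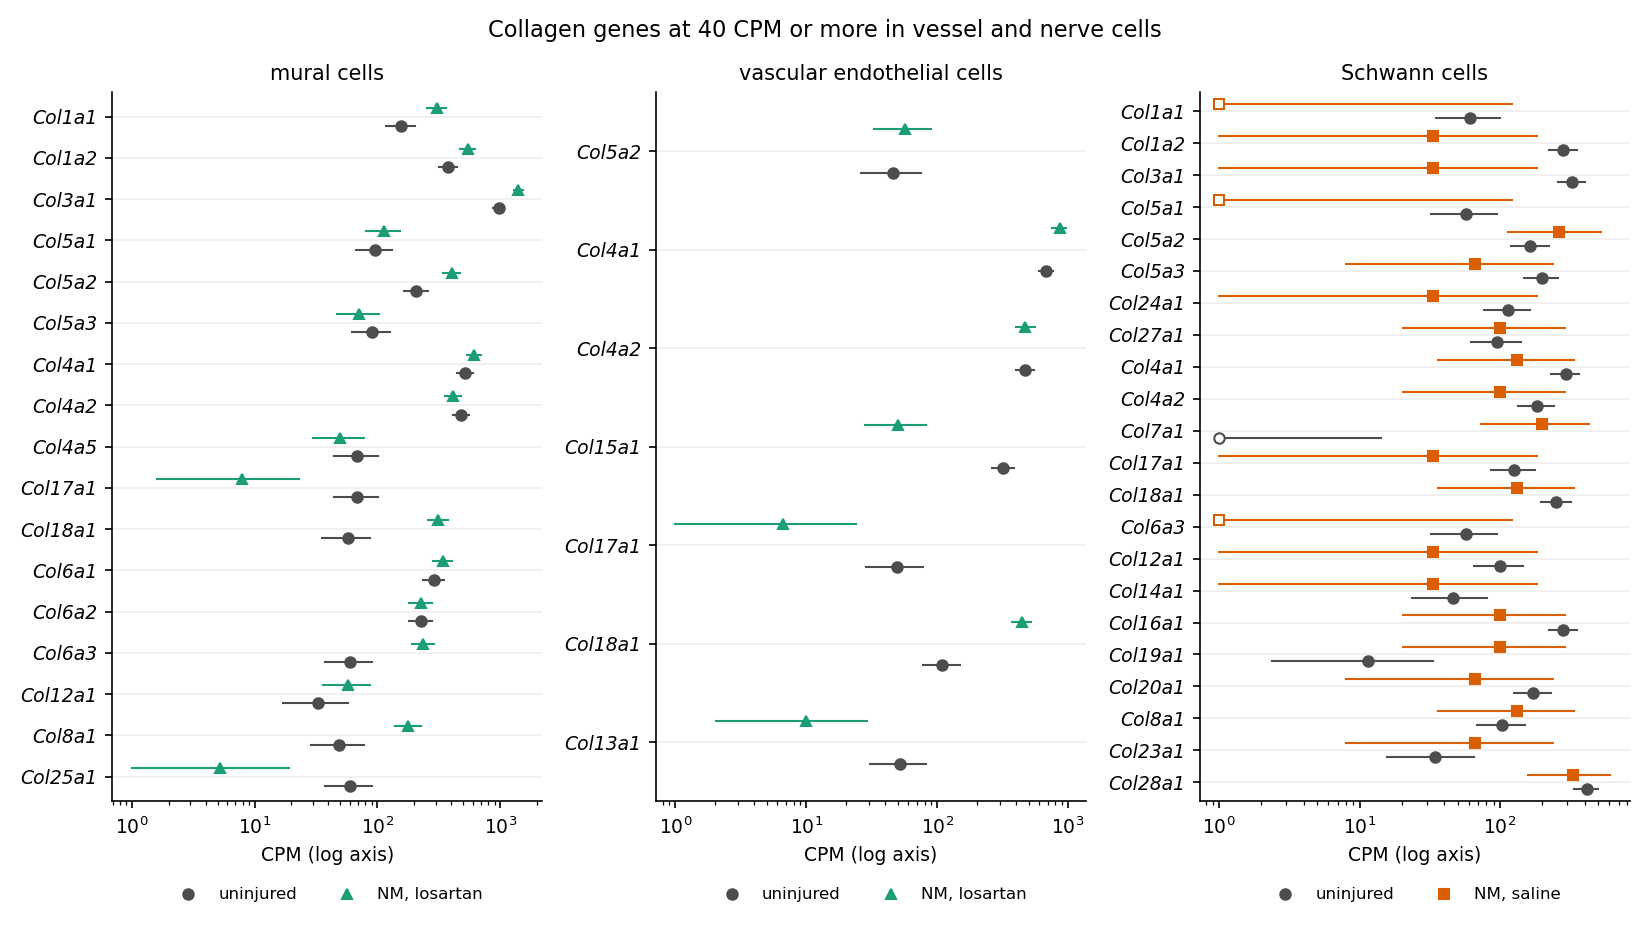
Level of collagen genes at 40 CPM or more (CPM, log axis) in mural-like and vascular endothelial-like cells of the uninjured and losartan libraries and in Schwann-like cells of the uninjured and saline libraries, with 95% Poisson bars and open symbols under 1 CPM. Col18a1 lies higher in losartan in both vessel classes (57.3 and 312 CPM, 109 and 442 CPM), and bars in saline Schwann-like cells are wide.

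Col18a1 was higher in losartan than uninjured in stromal-like (38.6-fold, 16.4 to 119), mural-like and endothelial-like cells (in the last with 2 cells holding 50% of its UMIs), and it was higher in both injured libraries than uninjured in epithelial-like cells. Col4a1 and Col4a2 were higher in saline than losartan in epithelial-like cells and the reverse in stromal-like cells as a class.

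Making collagen takes enzymes that hydroxylate and glycosylate the chains, chaperones that hold the helix, proteases and oxidases that trim and crosslink it, and receptors that bind or take it up. A list of 46 such genes was counted with the same rule. In stromal-like cells 14 of the 21 chain modification and folding genes measured were lower and 1 higher in saline than uninjured (median −0.78), where 30.0% of all genes were lower and 17.0% higher (median −0.24). Within cluster 7 the same comparison had 7 of 20 lower and 3 higher (median −0.29), where 56.2% of all genes were lower and 15.7% higher (median −0.74). Plod1, a lysyl hydroxylase, stood at 432, 117 and 89.4 CPM, and Serpinh1, the collagen chaperone HSP47, at 1147, 385 and 1055 CPM. Plod2, the hydroxylase of the telopeptides, was the 1 higher, at 17.0, 42.8 and 62.6 CPM. Losartan against saline had 13 of 22 such genes higher and 1 lower (median 0.97), where 26.0% of all genes were higher and 17.6% lower (median 0.16). Within cluster 7 the numbers were 2 higher and 2 lower of 18, where 12.5% of all genes were higher and 24.4% lower, and Serpinh1 stood at 404 and 519 CPM.

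Among the 10 cleavage and crosslinking genes measured in stromal-like cells 4 were lower and 1 higher in saline than uninjured, and 3 were higher and 2 lower in losartan than saline. The first count is set against 30.0% lower and 17.0% higher among all genes, and the second against 26.0% higher and 17.6% lower. Within cluster 7 both splits were turned, with 5 of 9 higher and 1 lower in saline than uninjured (median 0.80, against −0.74 for all genes) and 0 of 9 higher and 2 lower in losartan than saline. Lox, the lysyl oxidase that starts crosslinking, stood at 132, 70.7 and 438 CPM, and within cluster 7 at 71.9 CPM in saline and 95.9 CPM in losartan. Pcolce2, an enhancer of propeptide cleavage, had the opposite order, at 55.0, 107 and 49.2 CPM. Of 6 collagen receptors measured 5 were lower in saline than uninjured, among them Itga11, the integrin chain of stromal cells for fibrillar collagen, at 104, 46.4 and 29.6 CPM, and 3 were higher in losartan than saline, against the same shares of all genes. Within cluster 7, 3 of 6 were lower and 0 higher in saline than uninjured, and 0 of 5 were higher or lower in losartan than saline. Among all genes measured in cluster 7, 56.2% were lower and 15.7% higher in the first comparison. In the second, 24.4% were lower and 12.5% higher. These shares apply to both lists.

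In epithelial-like cells 7 of 13 chain modification and folding genes were higher and 1 lower in saline than uninjured (median 0.70), where 20.2% of all genes were higher and 17.1% lower (median 0.03). Plod2 stood at 2.73, 45.4 and 42.1 CPM and Serpinh1 at 16.7, 73.3 and 59.7 CPM. P3h2, a prolyl hydroxylase known for type IV chains, was the 1 lower, at 102, 31.6 and 41.9 CPM. Of these 13 genes 0 were higher and 2 lower in losartan than saline, where 2.09% of all genes were higher and 5.87% lower. The receptor subunit Itgb1 stood at 180, 420 and 275 CPM, and the discoidin receptor Ddr1 at 164, 73.3 and 108 CPM.

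Promoter windows (RefSeq, GRCm38) were matched by symbol for 35 of the 44 genes, and not for Col1a1, Col2a1, Col5a2, Col4a3, Col9a3, Col12a1, Col14a1, Col22a1 and Col26a1. In the 250 bases before the start, on either strand, CCAAT occurred in 13 of 38 collagen windows (34.2%) against 33.8% of 32851 windows of all genes, TATAAA in 5 (13.2% against 12.4%) and TGANTCA, the AP-1 motif, in 1, that of Col6a1 (2.63% against 6.75%). The first pair of shares lie near those of all genes, the last rests on 1 window, matches of different motifs may overlap, and all are matches of letters only.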

How the data were processed

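UMI counts per gene and cell barcode were used as deposited by the authors, and come from Cell Ranger 8.0.0, per the file headers, with the GRCm38 build, per the submitters' processing notes; whether the 3′ or 5′ end was read is not given in the sources used here. Cells with under 500 detected genes or over 20% mitochondrial UMIs were removed (703, 680 and 725), as were the highest doublet scores (1334, 334 and 243, at 0.8% per 1000 barcodes). Barcode sequences shared between libraries numbered 6 to 20 per pair. The rest were clustered with scanpy 1.11.5 and leidenalg 0.10.2 (2000 variable genes without collagens, 30 components, 20 neighbours, resolution 0.8), and a cluster was named from 15 marker lists when its own list led by 10 points of detection with 3 markers detected. It stayed unnamed where another list had more markers among its top 10 genes, or where its cells held under 1 in 3 of their libraries' median UMIs with none of its own markers among those 10. The latter left out clusters 6 and 10 (1203 and 991 uninjured cells) and 16 (303 saline and 190 losartan cells), which scored highest for the epithelial list. Clusters 15.0 (38 saline and 129 losartan cells) and 22 (3, 22 and 70 cells) scored highest for the stromal list and also stayed unnamed. In cluster 15.0 Col1a1 stood at 215 CPM in saline and 266 CPM in losartan cells. Unnamed cells numbered 2269, 413 and 503 in all, with those of clusters 6, 10, 15.0, 16 and 22 among them. Counts were summed per class and library and compared as CPM ratios with exact intervals (scipy 1.17.1). There was no test, since each group is 1 library. The ratio, its interval and the 1.5-fold rule were run on simulated Poisson counts. The filtering, doublet removal, clustering and naming were not tested in this way. Members named are, per comparison, the 5 highest and 5 lowest ratios and a fixed set of chains (types I, III and V, Col4a1, Col4a2, Col17a1, Col7a1, Col18a1, type VI, Col12a1 and Col8a1), and for pathway lists the 3 at either end; other members and Serpinh1, Ddr1 or Lox where they lie outside it were chosen after their values were seen, to account for a role. Members and lists were chosen with earlier results of these data known. The gene models were GENCODE M21 and the promoter windows RefSeq, and 12 alternatives were tried.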

Additional observations from a re-analysis of the deposited data

Results flagged for a closer look

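Results for 4 collagens are listed because the epithelial-like and stromal-like cells of the same library pair went opposite ways, each by 1 library against 1, and the difference between the cell classes was not tested. In saline against uninjured, on the log2 CPM + 5 scale, Col4a1 differed by 2.76 in epithelial-like and −1.36 in stromal-like cells, Col4a2 by 2.48 and −1.19, and Col12a1 by 0.60 and −1.47. In losartan against saline Col4a1 differed by −1.36 in epithelial-like and 2.45 in stromal-like cells, Col4a2 by −1.20 and 1.83, and Col8a1 by −0.70 and 1.54. Within stromal cluster 7 the losartan library differed from saline by −0.02 for Col4a1, 0.10 for Col4a2 and −1.30 for Col8a1.

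Col15a1, the basement membrane collagen of vessels, had UMIs in neutrophil-like cells, which the comparisons above do not use. It stood at 14.6 CPM in the saline library (175 UMIs) and 12.3 CPM in the losartan library (45 UMIs). In the same libraries the higher of its stromal-like and epithelial-like levels was 0.653 and 2.35 CPM. Vascular endothelial-like cells had more in losartan, at 49.8 CPM (15 UMIs), and 0 UMIs in the 11 saline cells.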

How the results depend on the processing

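No paired analysis was possible because each group is 1 library and the labels give no replicate numbers. Values here are log2 differences unless named as counts. The stromal fibrillar sum in saline against uninjured (−1.96) kept its direction at −1.99 with collagens kept in the clustering, −2.25 with cells of 200 or more genes, −2.15 without doublet removal, −2.18 at resolution 0.4, −1.60 with cells weighted equally, −1.61 with cells thinned to 1500 UMIs, −1.66 with median-of-ratios scaling, −1.05 within cluster 7 and −2.27 with unnamed clusters added to their best-scoring class, an alternative chosen after seeing the data. In losartan against saline (1.00) it was 1.03 with 200 genes and without doublet removal, 0.42 with equal weights, 0.43 thinned, 0.78 with median-of-ratios scaling and 0.67 within cluster 15.1, and it reversed to −0.23 within cluster 7; the cause was not tested. The epithelial basement membrane sum in saline against uninjured (−0.17) was −0.20 with collagens in the clustering, at resolution 0.4 and with median-of-ratios scaling, −0.25 with 200 genes, −0.21 without doublet removal, −0.36 with equal weights and thinned, and −0.27 with unnamed clusters added. In losartan against saline (0.05) it was 0.092 with 200 genes, 0.024 without doublet removal, 0.13 with equal weights and thinned, and 0.12 with median-of-ratios scaling. Counts of collagens past the threshold moved in epithelial-like cells from 3 to 5 with equal weights or with no minimum level (losartan against saline) and from 7 to 11 with no minimum level (saline against uninjured), and in stromal-like cells from 15 to 8 within cluster 15.1. Values of opposite sign for named genes within cluster 7 were Col23a1 at 0.075 in saline against uninjured and, in losartan against saline, Col1a1 −0.28, Col1a2 −0.15, Col11a1 −0.25, Col4a1 −0.022, Col17a1 0.36, Col18a1 −0.0045, Col12a1 −0.61, Col14a1 −0.18, Col8a1 −1.30 and Col23a1 −0.15, of which Col4a1 and Col18a1 are close to no difference. Within cluster 15.1 they were Col4a1 −1.07, Col4a5 0.44, Col18a1 −0.26, Col14a1 −0.80, Col8a1 −0.87 and Col13a1 0.44, from few UMIs in saline and losartan (Col4a5 and Col13a1 0 and 1, Col14a1 2 and 0, Col18a1 4 and 3, Col4a1 9 and 3, Col8a1 11 and 5). In Schwann-like cells with 200 or more genes Col5a2 was −0.36 and Col23a1 −0.81. Depth limits the classes with few cells most, as 1 UMI equals 33.1 CPM in saline Schwann-like cells.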

Other observations

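Some collagens were also read in the immune cells of the injured libraries. In macrophage-like cells Col14a1 stood at 13.3 CPM in saline (142 UMIs) and 7.70 CPM in losartan (33 UMIs). In dendritic-like cells Col27a1, a fibrillar collagen, stood at 10.2 CPM in saline and 13.9 CPM in losartan (19 and 17 UMIs), with 1 of 119 saline and 2 of 94 losartan cells holding 50% of them. Type I chains differed between the libraries in cells that are not known to make them. Col1a1 stood at 5.49 CPM in saline and 22.4 CPM in losartan neutrophil-like cells, and at 2.35 and 18.4 CPM in macrophage-like cells. Col17a1 stood at 20.6 and 31.4 CPM in neutrophil-like cells of the same libraries.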
